A study of Mus musculus with 10 samples.

Results

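AMPA receptors carry most fast excitatory transmission in the hippocampus. Genes of the receptor were followed here in the deposited table of normalised counts: the 4 pore subunits Gria1, Gria2, Gria3 and Gria4, the transmembrane regulatory proteins Cacng2, Cacng3 and Cacng8, the cornichons Cnih2 and Cnih3, and Shisa9. They were chosen by gene symbol, 10 of the 31510 genes in the table, and all 10 passed the filter on low values, so no member was lost. The samples were dissected hippocampi of 10 male APP/PS1 mice (catalogue number 34832 of the Jackson Laboratory), a strain that carries transgenes for a mutant amyloid precursor protein and a mutant presenilin driven by the prion protein promoter and that deposits amyloid. At 8 months of age 5 mice received AAV8-GFP and 5 received AAV8-Irisin-FLAG in the tail vein, and tissue was taken 2 months later. The injection was meant to make the liver secrete FLAG-tagged irisin, the shed part of the muscle protein Fndc5, and every mouse of both groups carried the transgenes and received a virus. No mouse without the transgenes is in the series, so the values say nothing of the effect of amyloid. The comparison asked whether circulating irisin altered the transcripts of the receptor in the hippocampus.

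An AMPA receptor is a tetramer of the subunits GluA1 to GluA4, the products of Gria1 to Gria4. Receptors that contain edited GluA2 pass little calcium, because ADAR enzymes convert an adenosine of the Gria2 transcript so that a glutamine codon in the pore loop is read as arginine. Auxiliary proteins set how the receptor reaches the synapse and how fast it closes: Cacng2 (stargazin), Cacng3 and Cacng8 belong to the TARP family, cornichons aid export from the endoplasmic reticulum and slow closing, and Shisa9 (CKAMP44) speeds desensitisation. In the hippocampus Cacng8 and Cnih2 are known as the leading partners of receptors in pyramidal cells, and GluA4 is known from fast-spiking interneurons.

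The pore loop region shows how close the 4 subunits are and where Gria2 is edited. Each run is 57 bases of GENCODE M21 transcript sequence in mm10, 5′ to 3′ on the coding strand and inside 1 exon. Capitals mark the codon at the editing site of Gria2 and the matching codon of the other genes.
Gria1: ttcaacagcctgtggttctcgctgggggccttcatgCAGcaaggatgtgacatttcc
Gria2: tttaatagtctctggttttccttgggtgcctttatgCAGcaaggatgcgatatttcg
Gria3: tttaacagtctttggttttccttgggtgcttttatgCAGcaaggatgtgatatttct
Gria4: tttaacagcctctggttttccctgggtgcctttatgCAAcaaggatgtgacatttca

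The runs lie at chr11:57243058-57243114 (Gria1, plus strand), chr3:80706893-80706949 (Gria2, minus strand), chrX:41610229-41610285 (Gria3, plus strand) and chr9:4464119-4464175 (Gria4, minus strand). Counting all exons of the transcript used, they are in exon 11 of Gria1, Gria2 and Gria3 and exon 12 of Gria4. The codon in capitals is codon 607 of Gria2, counted from the start codon. Gria2 and Gria3 shared 52 of the 57 bases and Gria1 and Gria2 shared 45, the most and the fewest of the 6 pairs. The deposited values count reads per gene, so they hold neither the edited share of Gria2 nor the alternative flip and flop exons that follow the pore.

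Deposited totals were nearly equal, between 35300000 and 36600000 normalised counts per library, and the estimated depth was between 30700000 and 41500000 counted reads. One library stood apart: AAV8-GFP mouse 1 held the lowest value of 20.8% and the highest value of 19.7% of the 17556 genes tested, against 6.92% to 11.8% in the other 9 libraries. That mouse had the lowest value of 5 of the 10 receptor genes and the highest of 2, and results that rest on it are given with and without it. Genes of hippocampal principal cells were present in every library, so the defining markers of the labelled tissue were there in all 10 libraries. The 8 pyramidal markers summed to 85761 to 93325 in AAV8-GFP and 85278 to 87353 in AAV8-irisin. The 7 dentate granule markers summed to 13631 to 16607 in AAV8-GFP and 13801 to 16441 in AAV8-irisin.

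Receptor transcripts differed little between the groups. By limma, 0 of the 10 genes passed an adjusted p of 0.05, as was the case for 0% of all 17556 genes tested. Differences are given as AAV8-irisin minus AAV8-GFP in log2(value + 1), called log2 differences here, and they lay between -0.07 for Cnih2 and 0.16 for Gria4, with 4 means higher, 6 lower and a median of -0.008, where the median over all genes was 0.001. At an unadjusted p under 0.05 stood 1 of the 10 genes, Gria4, beside 4.49% of all genes. In none of the 10 genes did the 2 groups of mice separate fully, and full separation occurred in 0.803% of all genes.

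The precision was high for these abundant transcripts. Their coefficient of variation between mice, averaged over the 2 groups, had a median of 4.95% over the 10 genes, with a range of 3.11% to 6.23%, against 8.12% over all genes tested and 4.49% over the 4309 genes at least as abundant as the lowest member. Standard errors of the log2 differences ran from 0.038 to 0.055. For 9 of the members the 95% interval of the fold between groups therefore spanned 1 and stayed between 0.897 and 1.12, and that of Gria4 ran from 1.04 to 1.20. These intervals bound the size of a difference that could have gone unseen and do not show that the groups were equal.

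**Figure D1:**
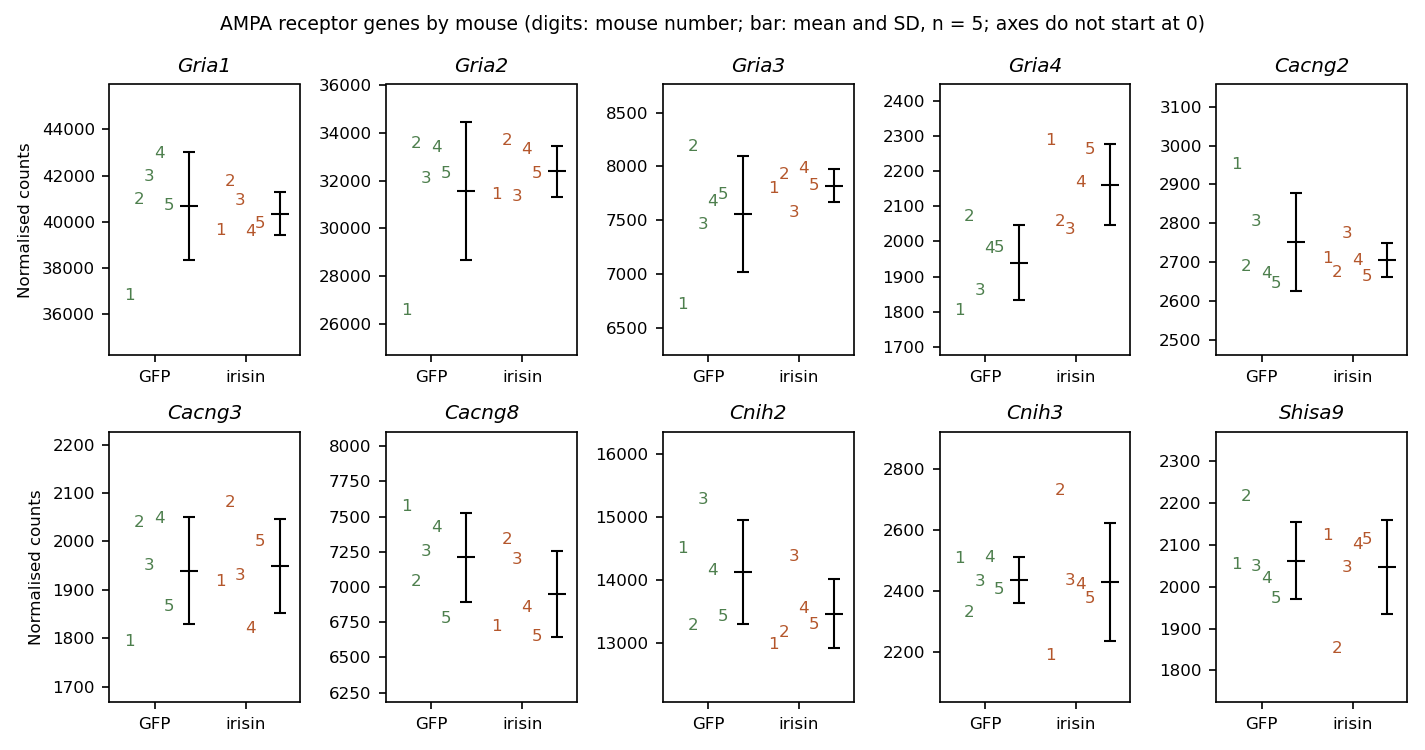
Normalised counts of the 10 receptor genes in each mouse, AAV8-GFP in green and AAV8-irisin in orange, with digits for the mouse number and bars for the mean and SD of 5 mice, on axes that do not start at 0. Gria4 has 3 AAV8-irisin mice above every AAV8-GFP mouse, and AAV8-GFP mouse 1 lies lowest in Gria1, Gria2, Gria3, Gria4 and Cacng3.

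Gria1 encodes GluA1, the subunit whose insertion at synapses accompanies long-term potentiation (chromosome 11, 57011387 to 57330244, plus strand). Its normalised counts were 36766, 40946, 41963, 42949 and 40696 in AAV8-GFP mice 1 to 5 and 39599, 41732, 40902, 39567 and 39921 in AAV8-irisin mice 1 to 5. All AAV8-irisin values fell inside the range of the AAV8-GFP mice, and the AAV8-GFP range was set at its low end by mouse 1. Against the other 4 AAV8-GFP mice, AAV8-irisin mice 1, 4 and 5 lay below and mice 2 and 3 lay inside their range, 40696 to 42949. The log2 difference was -0.0097 ± 0.038 (SE), within a 95% interval of -0.09 to 0.07 (limma, adjusted p = 0.979). Without AAV8-GFP mouse 1 it was -0.046 (limma, unadjusted p = 0.0871, adjusted p = 0.983).

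Gria2 encodes GluA2, the subunit that makes receptors impermeable to calcium once edited (chromosome 3, 80681450 to 80802835, minus strand). AAV8-GFP mice had 26531, 33561, 32091, 33394 and 32279 normalised counts and AAV8-irisin mice had 31403, 33677, 31329, 33291 and 32312. AAV8-GFP mouse 1 was lowest, at 80.8% of the mean of the other 4 mice of its group. Against those 4 mice, AAV8-irisin mice 1 and 3 lay below, mouse 2 lay above and mice 4 and 5 lay inside their range. The log2 difference was 0.042 ± 0.055 (SE; limma, adjusted p = 0.952), and without AAV8-GFP mouse 1 it was -0.019, so its sign rests on that mouse.

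Gria3, on the X chromosome (41400854 to 41678601, plus strand), encodes GluA3, which joins GluA2 in another pool of receptors. The values were 6720, 8187, 7461, 7679 and 7738 in AAV8-GFP and 7798, 7922, 7577, 7982 and 7826 in AAV8-irisin, which all lay within the AAV8-GFP range. The log2 difference of 0.052 (SE 0.044, limma, adjusted p = 0.942) became 0.011 without AAV8-GFP mouse 1.

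Gria4 encodes GluA4, a fast-gating subunit of the adult brain (chromosome 9, 4417896 to 4796234, minus strand), and it had the largest difference of the 10 genes. AAV8-GFP mice had 1802, 2070, 1860, 1981 and 1982 normalised counts and AAV8-irisin mice had 2287, 2056, 2035, 2168 and 2263. AAV8-irisin mice 1, 4 and 5 lay above every AAV8-GFP mouse, whereas mice 2 and 3 fell just below the highest of them, a pattern of at least 3 mice that 7.57% of all genes tested also had. The group means of 5 mice were 1939 ± 107 (SD) for AAV8-GFP and 2162 ± 116 (SD) for AAV8-irisin, which makes a log2 difference of 0.16 ± 0.049 (SE), its 95% interval running from 0.05 to 0.26. By limma its unadjusted p was 0.00617 and its adjusted p was 0.942, so Gria4 did not pass. The difference was 0.13 without AAV8-GFP mouse 1, the lowest of the 10 mice for this gene. In bulk tissue more cells of a type and more RNA per cell cannot be told apart. All 8 interneuron markers fixed for this report were tested, of which 6 had a higher mean and 2 a lower one in AAV8-irisin. Their median log2 difference was 0.006, and their values summed to 30611 to 35591 in AAV8-GFP mice against 33568 to 35303 in AAV8-irisin mice. These markers cover several interneuron types, and Pvalb made up 854 of the 33413 summed in AAV8-GFP mouse 1. The sum therefore does not single out the fast-spiking cells, and their part in the Gria4 values was not tested.

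The makeup of the subunit pool was set mostly by GluA1 and GluA2 transcripts. Divided by the length of all exons of protein-coding transcripts, Gria1 made up 59.0% of the 4 subunit transcripts over the 10 mice, Gria2 26.2%, Gria3 12% and Gria4 2.79%. Gria2 has 10486 bases of such exons and 2649 of coding sequence, the widest gap of the 4 genes, and per coding length the shares were 48.7%, 39.4%, 9.43% and 2.48%. The order Gria1, Gria2, Gria3, Gria4 was the same on both scales and in every mouse, although the distance between Gria1 and Gria2 depended on the length used.

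The shares lay close together in the 2 groups. Per exon length the share of Gria1 was 59.6% ± 1.0 (SD over 5 mice) in AAV8-GFP and 58.5% ± 0.81 in AAV8-irisin. Its ranges overlapped. The share of Gria2 was 25.9% ± 0.80 and 26.4% ± 0.57, and that of Gria3 was 11.9% ± 0.41 and 12.2% ± 0.25. Gria4 had shares of 2.78%, 2.74%, 2.49%, 2.58% and 2.69% in AAV8-GFP mice 1 to 5 and 3.16%, 2.70%, 2.77%, 2.94% and 3.08% in AAV8-irisin mice 1 to 5. Its share was thus highest in the same 3 AAV8-irisin mice that had the highest Gria4 values. The ratio of Gria1 to Gria2 counts was 1.29 ± 0.062 (SD over 5 mice) for AAV8-GFP and 1.25 ± 0.043 for AAV8-irisin, and AAV8-GFP mouse 1 held the highest ratio of all, 1.39. Without that mouse the AAV8-GFP ratios ran from 1.22 to 1.31, beside 1.19 to 1.31 in AAV8-irisin.

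**Figure D2:**
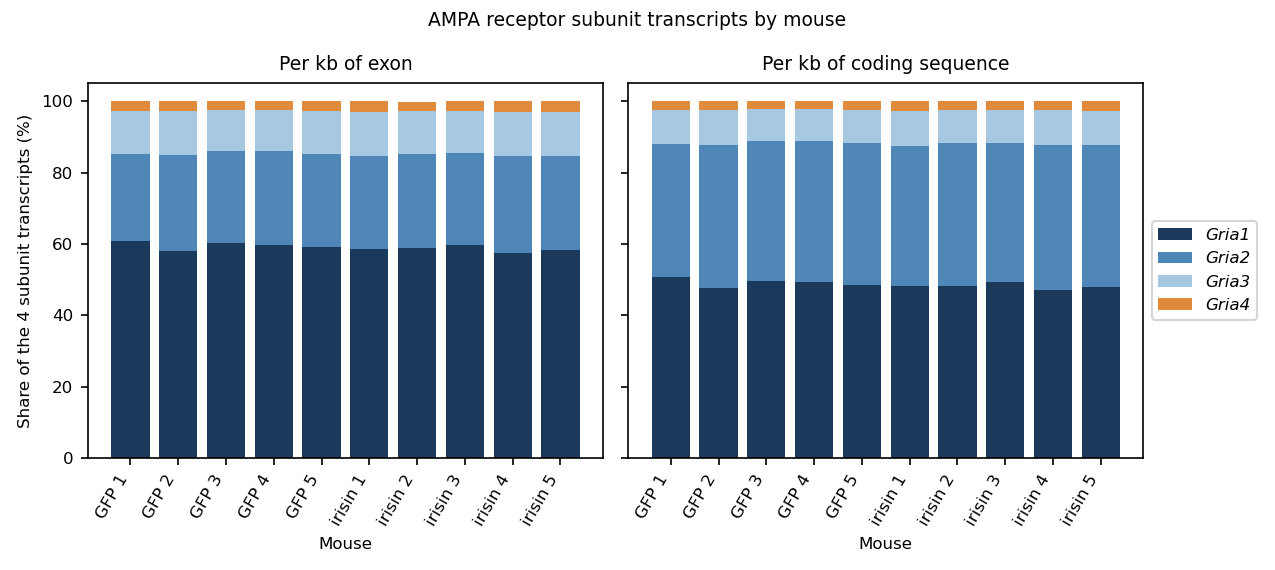
Share of each of the 4 subunit genes in their summed transcripts in each mouse, in percent, with values divided by exon length on the left and by coding length on the right. The stacks look alike in all 10 mice, and Gria4, the topmost segment, stays between 2.49% and 3.16% per exon length.

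Among the TARPs, which anchor receptors to PSD-95 at the synapse, no gene differed between the groups at the threshold. Cacng8 (γ-8, chromosome 7, 3390683 to 3415648) was the most abundant of them, with 7573, 7037, 7251, 7420 and 6775 normalised counts in AAV8-GFP and 6718, 7339, 7194, 6858 and 6646 in AAV8-irisin. AAV8-irisin mice 1 and 5 lay just below the lowest AAV8-GFP mouse, and the other 3 fell within the AAV8-GFP range. The log2 difference was -0.053 ± 0.039 (SE; limma, adjusted p = 0.942), and -0.035 without AAV8-GFP mouse 1. Cacng2 (stargazin, chromosome 15, 77991748 to 78120028) had 2951, 2689, 2805, 2670 and 2645 in AAV8-GFP and 2710, 2673, 2774, 2704 and 2663 in AAV8-irisin. All 5 AAV8-irisin mice lay inside the AAV8-GFP range, whose top was AAV8-GFP mouse 1, and the log2 difference of -0.024 turned to 0.0016 without that mouse. Cacng3 (γ-3, chromosome 7, 122670492 to 122769393) had 1793, 2040, 1951, 2048 and 1866 in AAV8-GFP and 1917, 2081, 1929, 1820 and 2000 in AAV8-irisin. The groups overlapped broadly, and the log2 difference of 0.0078 turned to -0.020 without AAV8-GFP mouse 1, the lowest of the 10 mice.

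Cornichons and Shisa9 overlapped between the groups as well. Cnih2 (chromosome 19, 5092868 to 5098521), the cornichon of pyramidal cells, had 14506, 13287, 15276, 14149 and 13418 normalised counts in AAV8-GFP and 12974, 13164, 14365, 13554 and 13292 in AAV8-irisin. AAV8-irisin mice 1 and 2 lay below the lowest AAV8-GFP mouse. Its log2 difference, -0.068 ± 0.041 (SE), within a 95% interval of -0.16 to 0.02 (limma, adjusted p = 0.942), was the lowest of the 10 genes, and it was -0.039 without AAV8-GFP mouse 3, the highest of the 10 mice. Cnih3 (chromosome 1, 181352628 to 181460641), the related cornichon, had 2507, 2331, 2432, 2510 and 2406 in AAV8-GFP and 2190, 2731, 2434, 2422 and 2376 in AAV8-irisin. Its means were nearly the same, 2437 and 2431, while AAV8-irisin mouse 1 was the lowest and mouse 2 the highest of all 10. The log2 difference of Cnih3, -0.0069, was 0.0034 without AAV8-GFP mouse 1. Shisa9 (chromosome 16, 11984113 to 12270902) had 2054, 2216, 2049, 2019 and 1972 in AAV8-GFP and 2123, 1853, 2047, 2102 and 2113 in AAV8-irisin. AAV8-irisin mouse 2, highest for Cnih3, was the lowest for Shisa9, and the log2 difference of Shisa9 was -0.011 ± 0.047 (SE).

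**Figure D3:**
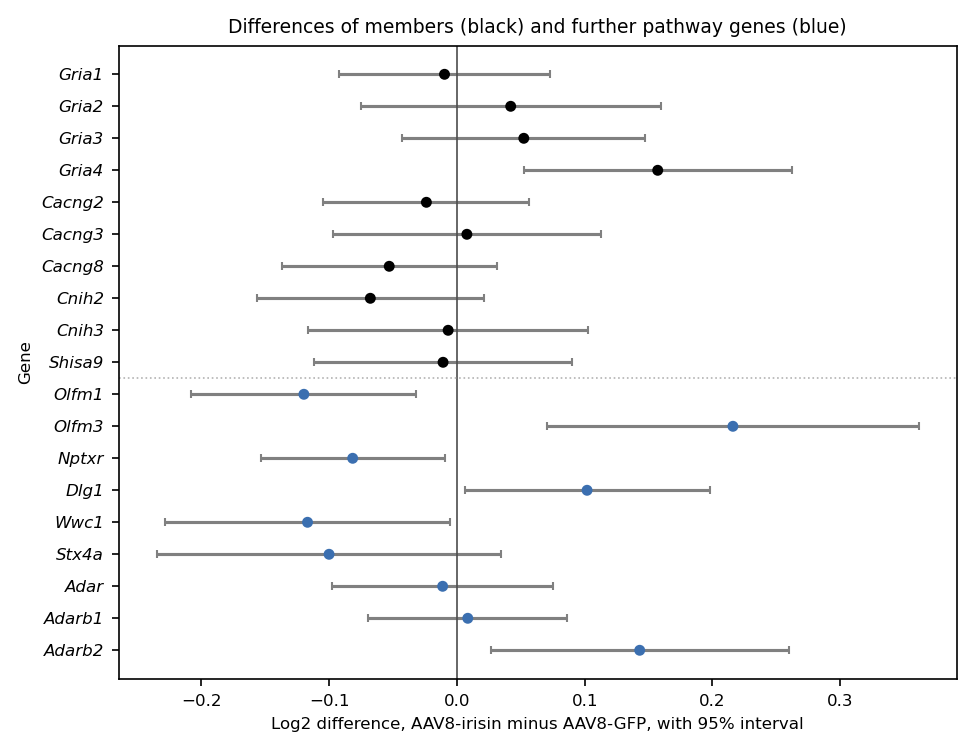
Log2 differences, AAV8-irisin minus AAV8-GFP, with 95% intervals from limma for the 10 receptor genes (black) and 9 further genes of the pathway (blue). Of the black points only the interval of Gria4, 0.05 to 0.26, excludes 0, and none of the 19 genes passed after adjustment.

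Levels can be compared between genes once they are divided by length. Per kilobase of exon, in normalised counts, Cnih2 stood highest with a mean of 10274 over the 10 mice, followed by Gria1 with 6873. Gria2 and Cacng8 came next with 3050 and 3020, and their ranges over mice, 2530 to 3212 and 2834 to 3229, overlapped. Below them stood Gria3 with 1398, Cnih3 with 885 and Cacng3 with 700, whose ranges did not overlap. Cacng2 and Shisa9 overlapped, with 495 and 470, and Gria4 was lowest with 325. Per kilobase of coding sequence the leading 4 genes kept their order, with Gria2 then far above Cacng8 at 12075 against 5580, while Cnih3 stood above Gria3 and Cacng2 above Cacng3. Because the length that was truly sequenced is unknown, these orders describe transcript abundance only roughly.

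Across mice the 10 genes did not vary as 1 block. After group means were taken away, the 45 pairs had Pearson coefficients over the 10 libraries from -0.87 to 0.93 with a median of 0.04, as a description of libraries that share their scaling. Gria2 and Gria3 varied most closely together (0.93, and 0.69 without AAV8-GFP mouse 1), and Gria1 and Gria2 followed (0.86, but 0.27 without that mouse). Cacng2 ran opposite to both Gria2 and Gria3 (-0.87 each, and -0.50 and -0.58 without the mouse). Pairs that changed little when the mouse was left out were Cnih3 with Shisa9 (-0.80 and -0.81), Gria4 with Cnih2 (-0.73 and -0.74) and Cacng8 with Cnih3 (0.72 and 0.73). Gria1 and Cacng8, the main subunit and its main TARP, had 0.02 over all libraries and 0.92 over the 9 without AAV8-GFP mouse 1. Gria1 with Gria3 moved further, from 0.65 to -0.37.

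**Figure D4:**
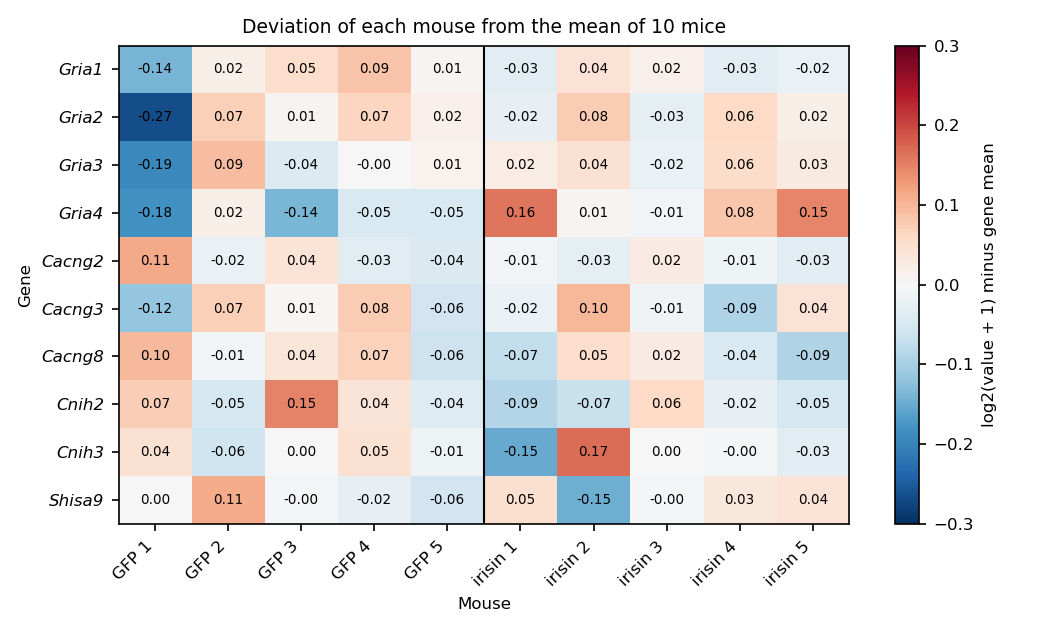
Deviation of each mouse (columns) from the mean of the 10 mice for each receptor gene (rows), on the log2(value + 1) scale. The first column, AAV8-GFP mouse 1, holds low values of Gria1 to Gria4 and Cacng3 beside high values of Cacng2 and Cacng8.

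AAV8-GFP mouse 1 was low in the subunit genes to different degrees, at 88.3% of the mean of the other 4 AAV8-GFP mice for Gria1, 80.8% for Gria2, 86.5% for Gria3 and 91.3% for Gria4. Over the same comparison Cacng2 stood at 109% and Cacng8 at 106%. Other receptor partners lay on both sides. Shisa6 stood at 71.7% and Frrs1l, an assembly factor of the endoplasmic reticulum, at 84.1%. Prrt1 stood at 119%, Olfm2 at 129% and Shisa8, a gene of low values, at 194% (116 against 45.9 to 70.6). The mouse also had the lowest sum of 7 astrocyte markers of the 10 mice, 131475 against 141325 to 170771. Slc1a2 made up 73263 of that sum, against 86033 to 100414 in the other 4 AAV8-GFP mice. Aqp4, Slc1a3, Slc1a2 and Fgfr3 were lowest in this mouse, whereas Gja1, Aldh1l1 and Gfap were not. The sum of 7 neocortex markers in this mouse, 7932, was the highest but close to the next, in a range of 5580 to 7692 for the other 9. Their part in the receptor values was not tested.

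The genes with the most similar pattern over the 10 libraries, after group means were taken away, were sought among 12260 named genes with a mean of at least 100. The 2 highest of that search are given for each member, as a description with no test. For Gria1 they were Npm1 and Nsf (Pearson coefficients 0.974 and 0.970). Nsf encodes an ATPase that binds the GluA2 tail. Gria2 was closest to Atp2c1 and Mtmr6 (0.986 and 0.985), Gria3 to Xkr4 and Atad2b (0.987 and 0.986) and Gria4 to Ctdspl2 and Hp1bp3 (0.964 and 0.956). For Cacng2 they were Romo1 and Txndc17 (0.972 and 0.969), for Cacng3 Synj2bp and Ccdc186 (0.944 and 0.936) and for Cacng8 Ube2v1 and Taf5l (0.963 and 0.959). Coro1c and Nutf2-ps1 were closest to Cnih2 (0.961 and 0.940), Entpd6 and Slc25a44 to Cnih3 (0.934 and 0.892) and Zfyve26 and Cbx8 to Shisa9 (0.897 and 0.883). With the 9 libraries other than AAV8-GFP mouse 1 these coefficients lay between 0.886 and 0.963, for genes that were chosen with those same libraries included.

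Of 21 further auxiliary and assembly genes, 8 had a higher and 13 a lower mean in AAV8-irisin, 0 passed the adjusted threshold in either direction, and the median log2 difference was -0.025. Of these, 4 had an unadjusted p under 0.05, 1 higher and 3 lower, beside 2.28% and 2.21% of all genes. Olfm3, a secreted noelin, had 523, 586, 475, 549 and 558 normalised counts in AAV8-GFP and 648, 647, 553, 643 and 633 in AAV8-irisin. The AAV8-irisin mice other than mouse 3 lay above every AAV8-GFP mouse, a pattern of at least 4 mice that 2.17% of all genes had, and the log2 difference was 0.22 (SE 0.068, limma, adjusted p = 0.942). Its relative Olfm1, a noelin that binds AMPA receptors at the cell surface, differed in the opposite direction. Olfm1 values were 42188, 38098, 40420, 36699 and 36539 in AAV8-GFP and 34105, 35366, 37297, 36078 and 35443 in AAV8-irisin. All AAV8-irisin mice but mouse 3 lay below every AAV8-GFP mouse, as at least 4 did in 2.23% of all genes. The log2 difference was -0.12 (SE 0.041, limma, adjusted p = 0.942), and -0.089 without AAV8-GFP mouse 1, which had the highest value. Nptxr, the neuronal pentraxin receptor that clusters AMPA receptors, had 44947 to 50569 in AAV8-GFP and 43122 to 44491 in AAV8-irisin. Its groups did not overlap, which 0.803% of all genes showed, and the log2 difference of -0.082 (limma, adjusted p = 0.942) was -0.049 without AAV8-GFP mouse 3, the highest value. Porcn, an acyltransferase found in native receptor complexes, was the fourth of these genes, with means of 2439 and 2284.

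Trafficking and anchoring genes were divided evenly, with 12 higher and 12 lower means among 24, a median log2 difference of 0.001 and 0 past the adjusted threshold. An unadjusted limma p under 0.05 was met by 2 of them, Dlg1 higher and Wwc1 lower, beside 2.28% and 2.21% of all genes. Dlg1, the scaffold SAP97 that binds the GluA1 tail, had a mean of 3621 ± 238 (SD over 5 mice) in AAV8-GFP and 3881 ± 128 in AAV8-irisin. Of the AAV8-irisin mice 1 exceeded the AAV8-GFP range. Wwc1, the memory-linked scaffold KIBRA, had 3605 ± 278 and 3319 ± 155, and its ranges, 3290 to 3960 and 3172 to 3558, overlapped. The syntaxin gene Stx4a, of postsynaptic exocytosis, had 1190 ± 104 and 1109 ± 71.8. The log2 differences were 0.10, -0.12 and -0.10, and the adjusted p was 0.942 for all 3 by limma. Without AAV8-GFP mouse 1 the difference of Stx4a was -0.048.

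The editing enzymes were also measured. Adarb1, which encodes the enzyme that edits the Gria2 codon shown above, had 6404, 6911, 7061, 7172 and 7154 normalised counts in AAV8-GFP and 6798, 7098, 6790, 7017 and 7184 in AAV8-irisin. The groups overlapped almost wholly and the log2 difference was 0.0085 with a 95% interval of -0.07 to 0.09 (limma, adjusted p = 0.981). It turned to -0.020 without AAV8-GFP mouse 1, which had the lowest value. Adar had 6787 ± 362 and 6731 ± 247 (SD over 5 mice), and its log2 difference of -0.011 was -0.034 without that mouse. Adarb2, a brain relative without known editing activity, had 1203 ± 88.9 and 1327 ± 59.5, so its log2 difference was 0.14 ± 0.054 (SE; limma, adjusted p = 0.942).

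Markers of other cells and neighbouring tissue did not pass the threshold either. Choroid plexus markers, of which 5 of 7 were tested and 5 had a higher mean in AAV8-irisin, summed to 728 to 989 in AAV8-GFP and 918 to 2628 in AAV8-irisin. The top of that range was AAV8-irisin mouse 4 alone, and the other 4 AAV8-irisin mice had 918 to 1134. Log2 differences of the 5 tested markers lay between 0.11 and 2.10, with a median of 0.456. In AAV8-GFP most of the sum was Kl, with 650 in mouse 1 and 812 to 879 in the other 4 mice. Ttr had 27.6 in mouse 1 and 10.1 to 48.3 in the other 4. Otx2 was at 0 in at least 1 library. The sum of 6 microglia markers was 13577 to 18344 in AAV8-GFP and 13059 to 16267 in AAV8-irisin, all 6 having lower means. The 7 striatal markers summed to 2831 to 3239 and 2922 to 3324, and the 6 markers of oligodendrocyte precursors, cells that also carry AMPA receptors, to 6614 to 7131 and 6222 to 7033. Of the striatal markers 4 had higher and 3 lower means in AAV8-irisin, with log2 differences between -0.15 and 1.03. Of the precursor markers 1 was higher and 5 were lower, between -0.28 and 0.02. Of the pyramidal markers 2 had higher and 6 lower means, between -0.10 and 0.15, and of the dentate granule markers 4 higher and 3 lower, between -0.13 and 0.28. By limma an unadjusted p under 0.05 was met by 2 striatal markers, 1 choroid plexus marker and 1 dentate granule marker, all higher, and 1 precursor marker, lower. Over all genes that share was 4.49%. The part of these markers in the receptor values was not tested.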

How the data were processed

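Polyadenylated RNA of 10 hippocampi, 5 per group, was sequenced after oligo(dT) capture and NEBNext Ultra preparation, per the labels' protocols, and handled with bcl2fastq 2.17 and DESeq2 on mm10, per the submitters' processing notes. Aligner, counter, annotation and strand setting are not given in the sources used here. Values in the authors' deposited table are a signal that is never negative, which the name of the table calls DESeq2 normalised counts. Low values were whole multiples of the most frequent low value in 56.5% to 75.4% of cases per library (tolerance 0.1 reads), so whole reads were not recovered, the depth is an estimate from that low value, and no counting interval is given.

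The 17556 of 31510 genes that reached 10 in 5 or more libraries were tested with limma 3.58.1 in R 4.3.3 on log2(value + 1), with group as the factor, a mean-dependent prior variance and Benjamini-Hochberg adjustment over all genes, two-sided, threshold 0.05. The fit was tested on simulated data. Mice are separate animals per the titles.

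Members, lists and tests were chosen with earlier results of these data known. Genes named are the 10 members, the 3 genes of smallest p in each of 3 further pathway lists, and the 2 genes most similar to each member. Porcn, Shisa6, Shisa8, Frrs1l, Prrt1, Olfm2 and the single marker genes were named after their values were seen. Positions are from GENCODE M21 (mm10). Exons of Cacng2 and Cnih2 overlap genes on the opposite strand, and those of Gria2, Gria3, Gria4 and Cacng8 overlap predicted genes on their own strand, which leaves those values uncertain. Alternatives were other pseudocounts, filters, scalings, weights, prior variance, a block on mouse number and leaving out each mouse.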

Additional observations from a re-analysis of the deposited data

Results flagged for a closer look

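In 6 of 46 groups of 5 mice examined (the receptor genes, 9 further pathway genes and the subunit shares, by group), 1 mouse lay far from the other 4, by Dixon's gap criterion, which chance alone meets in about 1 of 20 groups. Gria2 was 26531 in AAV8-GFP mouse 1, against 32091 to 33561 in the other 4. Shisa9 was 1853 in AAV8-irisin mouse 2, against 2047 to 2123. Olfm3 was 553 in AAV8-irisin mouse 3, against 633 to 648. Nptxr was 50569 in AAV8-GFP mouse 3, against 44947 to 45522. Stx4a was 1372 in AAV8-GFP mouse 1, against 1115 to 1178. Adarb2 was 1225 in AAV8-irisin mouse 4, against 1335 to 1375.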

How the results depend on the processing

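Under 19 alternatives, 10 of which left out 1 mouse, 0 of the 10 members were called, and 0 genes of the table were called under all but 1 of them: without a filter on low values 1 predicted gene outside the receptor passed. Mouse number names separate animals, and same-numbered mice did not deviate together (coefficients -0.089 to 0.030 over 5 pairs); the replicate block called 0 genes and 0 members. Gria3, Gria4, Cacng8 and Cnih2 kept their sign under all 19 alternatives, Gria4 between 0.13 and 0.18. With array quality weights the log2 differences of Cacng3, Cnih3 and Adarb1 turned to -0.0078, 0.00050 and -0.0089. Leaving out single mice gave -0.046 to 0.011 for Gria1, -0.019 to 0.065 for Gria2, -0.038 to 0.0016 for Cacng2, -0.020 to 0.032 for Cacng3, -0.050 to 0.030 for Cnih3, -0.027 to 0.025 for Shisa9, -0.034 to 0.019 for Adar and -0.020 to 0.021 for Adarb1. Not divided by length, the subunit shares were 49.3%, 38.9%, 9.35% and 2.50% for Gria1 to Gria4; per coding length, a scale added after the data were seen, they were 48.7%, 39.4%, 9.43% and 2.48%. The cause of the turned signs was not tested. With 5 mice per group, differences of the size of these standard errors cannot be resolved.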
